A study of Mus musculus with 3 samples.

Results

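The genes described here encode the degradative enzymes and the membrane proteins of the lysosome, together with the lysosomal regulator Tfeb and the growth factor Grn. They were chosen by name, with no threshold on a measured value, though earlier results of these data were known when the list was made. All 36 were measured, on 37 probe sets of 35557, among 19938 genes that could be named. They comprised 10 cathepsins and other proteases, 9 glycosidases, 4 sulfatases, 6 lipid-handling proteins, 5 membrane proteins, and the pair Tfeb and Grn.

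Expression was measured in kidney endothelial cells of CD-1 mouse embryos at 15.5 days post coitum, from a Tie2-GFP transgenic line. The 3 samples formed 1 group with no control or second condition. Each was a pool of 4 to 5 kidneys whose GFP-positive cells were sorted, and RNA was amplified in 1 round before hybridization to a Mouse Gene 1.0 ST array. GFP in this line is under control of the Tek promoter, Tek being the gene of Tie2, a receptor for angiopoietins. That promoter is known to be active in endothelium and also in some cells of the blood lineage. A sort on GFP alone can therefore hold both kinds of cell.

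The lysosome is the acidic compartment in which proteins, glycans, sulfated glycosaminoglycans and lipids taken up or discarded by a cell are broken down. Its soluble hydrolases are made in the endoplasmic reticulum, tagged with mannose 6-phosphate and carried to the compartment by receptors. A proton pump acidifies it and heavily glycosylated membrane proteins line it. Tfeb, with its relatives Mitf, Tfe3 and Tfec, is a transcription factor that binds the E-box letters CACGTG in promoters of lysosomal genes. In endothelium, lysosomes turn over material taken in from the blood and degrade receptors, and in macrophages they are abundant and rich in proteases.

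The 3 arrays did not stand equally far apart. Across all probe sets, Pearson's r was 0.923 between replicates 3 and 1, 0.927 between replicates 3 and 2, and 0.976 between replicates 2 and 1. The SD of the values was 1.84 in replicate 3, against 2.08 in replicate 1 and 2.06 in replicate 2. Tek was at 11.12, 10.97 and 10.13 log2 in replicates 1, 2 and 3, and all 10 endothelial markers were lowest in replicate 3, while 9 of the 10 lay above the level of 100 explained below. Macrophage markers ran the other way, with 17 of 21 highest in replicate 3 and summed linear levels of 2111, 4483 and 7759 in replicates 1, 2 and 3. Of all 19938 named genes, 7562 were highest and 5631 lowest in replicate 3. Of the 10098 named genes with a mean of at least 100, 1715 were highest and 5128 lowest there. Of the 21 macrophage markers, 3 were above the level, 3 were below it and 15 passed neither test. For erythroid cells 4 of 8 markers were above the level, for renal stroma 4 of 8, for nephron progenitors 4 of 6 and for the proximal tubule none of 5, with 5 below. Of all named genes 41.6% were above, so these small counts do not show whether such cells were present. Replicate 3 was highest for 4 of the 8 erythroid, 5 of the 8 stromal, 1 of the 6 progenitor and 2 of the 5 tubule markers. It was lowest for 1, 0, 1 and 0 of them, so a rise in replicate 3 was not limited to macrophage markers. In bulk RNA of this kind, fewer cells of a type and less RNA per cell cannot be told apart. The part of the smaller SD of replicate 3 in these marker differences was not tested.

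Promoter sequence was available in the RefSeq table (GRCm38.p6) for 32 of the 36 genes, in 38 windows that ran from 250 bases before to 50 bases after an annotated start. Ctsb, Ctsh, Npc1 and Asah1 had no entry. The letters CACGTG occurred in the windows of 13 of the 32 genes, which is 40.6%, against 2187 of 27025 genes with a window, or 8.09%. The longer form TCACGTGA, which contains the shorter one, occurred in 5 of the 32, or 15.6%, against 304 genes, or 1.12%. Both strings read the same on either strand, so 1 search covered both strands. A match describes letters in the window and not a bound site.

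Matches were spread unevenly over the functional groups. The shorter form was found in 4 of 8 proteases with a window (Ctsa, Ctsd, Ctsl, Lgmn), 4 of 9 glycosidases (Gaa, Gla, Glb1, Naglu), 2 of 4 sulfatases (Sgsh, Arsa) and 3 of 5 membrane proteins (Lamp1, Mcoln1, Cln3). None was found in 4 lipid-handling genes or in Tfeb and Grn. The longer form was found in Ctsa, Ctsd, Gla, Mcoln1 and Cln3. Other lysosomal genes held the shorter form in 16 of 63 (25.4%) and the longer in 9 (14.3%). By list the shorter form was in 5 of 9 genes that sort enzymes to the lysosome, 4 of 11 of the proton pump, 3 of 11 MiT factors and their controllers, 2 of 14 hydrolases, 2 of 16 membrane proteins and none of 2 inhibitors.

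Upstream stretches are printed for the gene with the most matches (Lamp1), for 4 of the 5 genes with the longer form, and for Ctsc and Psap. With Gla, this pair made up the genes that differed at least 2-fold between pools, and their windows held no match. Each runs 5′ to 3′ on the strand of its gene, with CACGTG in capitals. Lamp1 is at chr8:13159061-13159160 on the plus strand, Mcoln1 at chr8:3500419-3500518 on the plus strand, Ctsd at chr7:142387838-142387937 on the minus strand and Gla at chrX:134601156-134601255 on the minus strand. Ctsa is at chr2:164833673-164833772, Ctsc at chr7:88277985-88278084 and Psap at chr10:60277528-60277627, all on the plus strand. The stretches end at the base before the annotated start, except in Ctsd, which runs from -110 to -11, and Gla, which runs from -250 to -151.
Lamp1: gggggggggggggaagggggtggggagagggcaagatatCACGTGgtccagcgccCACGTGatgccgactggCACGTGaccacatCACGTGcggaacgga
Mcoln1: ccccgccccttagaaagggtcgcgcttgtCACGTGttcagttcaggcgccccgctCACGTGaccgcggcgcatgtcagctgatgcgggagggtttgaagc
Ctsd: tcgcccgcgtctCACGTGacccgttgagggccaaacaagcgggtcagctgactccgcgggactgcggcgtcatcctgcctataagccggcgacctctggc
Gla: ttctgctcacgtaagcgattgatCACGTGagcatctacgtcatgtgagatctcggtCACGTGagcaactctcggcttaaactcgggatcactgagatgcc
Ctsa: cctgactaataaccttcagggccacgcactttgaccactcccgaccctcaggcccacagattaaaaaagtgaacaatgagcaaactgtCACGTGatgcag
Ctsc: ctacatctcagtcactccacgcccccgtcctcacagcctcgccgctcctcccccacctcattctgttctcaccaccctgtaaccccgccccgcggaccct
Psap: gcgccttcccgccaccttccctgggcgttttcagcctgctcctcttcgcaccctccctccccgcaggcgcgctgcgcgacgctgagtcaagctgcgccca

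Lamp1, an abundant glycoprotein of the lysosomal membrane, held 4 matches at -61, -45, -28 and -15 from its start. Mcoln1, a calcium channel of the same membrane, held matches at -71 and -45, of which the second was the longer form. Ctsd, an aspartic protease, held the longer form at -98 and a shorter match at -245. Gla, the galactosidase deficient in Fabry disease, held the longer form at both -227 and -194. In Ctsa, the protective protein of a complex with galactosidase and sialidase, the longer form stood at -12 and at 6 bases after the start, in the second of its windows. The remaining 8 genes with a match held it between -236 (Ctsl) and -16 (Arsa).

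**Figure D1:**
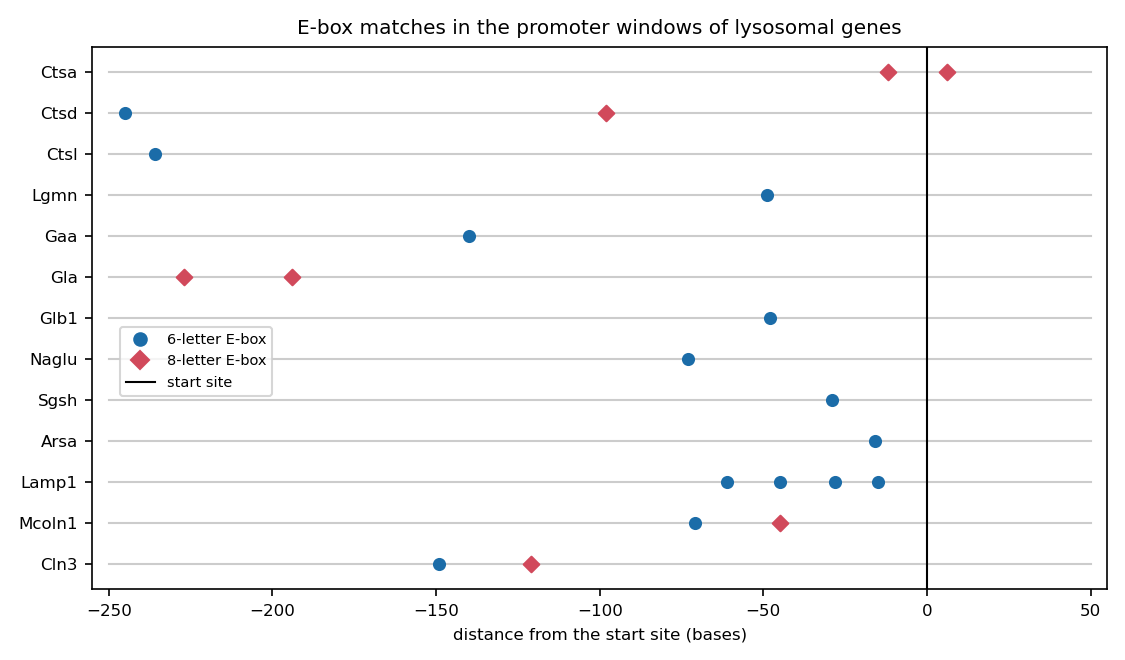
Positions of E-box matches in the promoter windows of the 13 lysosomal genes that held one. The horizontal axis is the distance from the annotated start in bases, circles mark the 6-letter form CACGTG, and diamonds mark the 8-letter form TCACGTGA. Lamp1 has 4 matches within the 61 bases before its start, while those of Gla lie at -227 and -194.

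The first question was which lysosomal genes were expressed above a low-signal level. The study kept only probe sets with a raw signal of at least 100 in 3 samples. That level is 6.64 on the log2 scale, and it may not carry over to the deposited values, whose normalization is not given. Each mean was tested against that level with limma (one-sided in each direction, Benjamini-Hochberg adjustment over all probe sets, threshold of 0.05). "Above" and "below" refer to this test throughout. Values over the level on all 3 arrays were found for 29 of the 36 genes and for 9426 of the 19938 named genes. By the test, 26 of the 36 genes were above the level, 4 were below it and 6 passed neither test. Of all named genes, 41.6% were above and 41.6% were below. Levels of different genes were not ranked, since probe sets differ in their response.

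Genes above the level were found in every functional group. All 5 membrane proteins were above, as were 8 of 10 proteases, 5 of 6 lipid-handling proteins, 3 of 4 sulfatases, 4 of 9 glycosidases and Grn. The 4 genes below were the protease Ctsk, the glycosidases Gaa and Naglu, and Tfeb. Those that passed neither test were Ctsc, Gla, Idua, Neu1, Arsb and Psap. With 2 arrays in place of 3 the count above was 16 without replicate 1, 15 without replicate 2 and 21 without replicate 3. Over all named genes the same fits gave 5531, 5051 and 8023 above, against 8295 with all arrays. The pair left without replicate 3 held the most exactly equal values, which lower the measured spread.

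Exact ties between arrays were common in the deposited values. In 8 of the 36 genes (22.2%) all 3 arrays carried 1 identical value, against 25.6% of all named genes, and in 23 of the 36 (63.9%) at least a pair of arrays did, against 69.6%. A tied gene has a measured SD of 0.00, so its p-value rests on the spread borrowed from other probe sets. When 1 spread was pooled over all probe sets, Arsa, Ids and Sgsh were no longer above and Gaa, Naglu and Tfeb no longer below, while Gla and Psap were above.

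**Figure D2:**
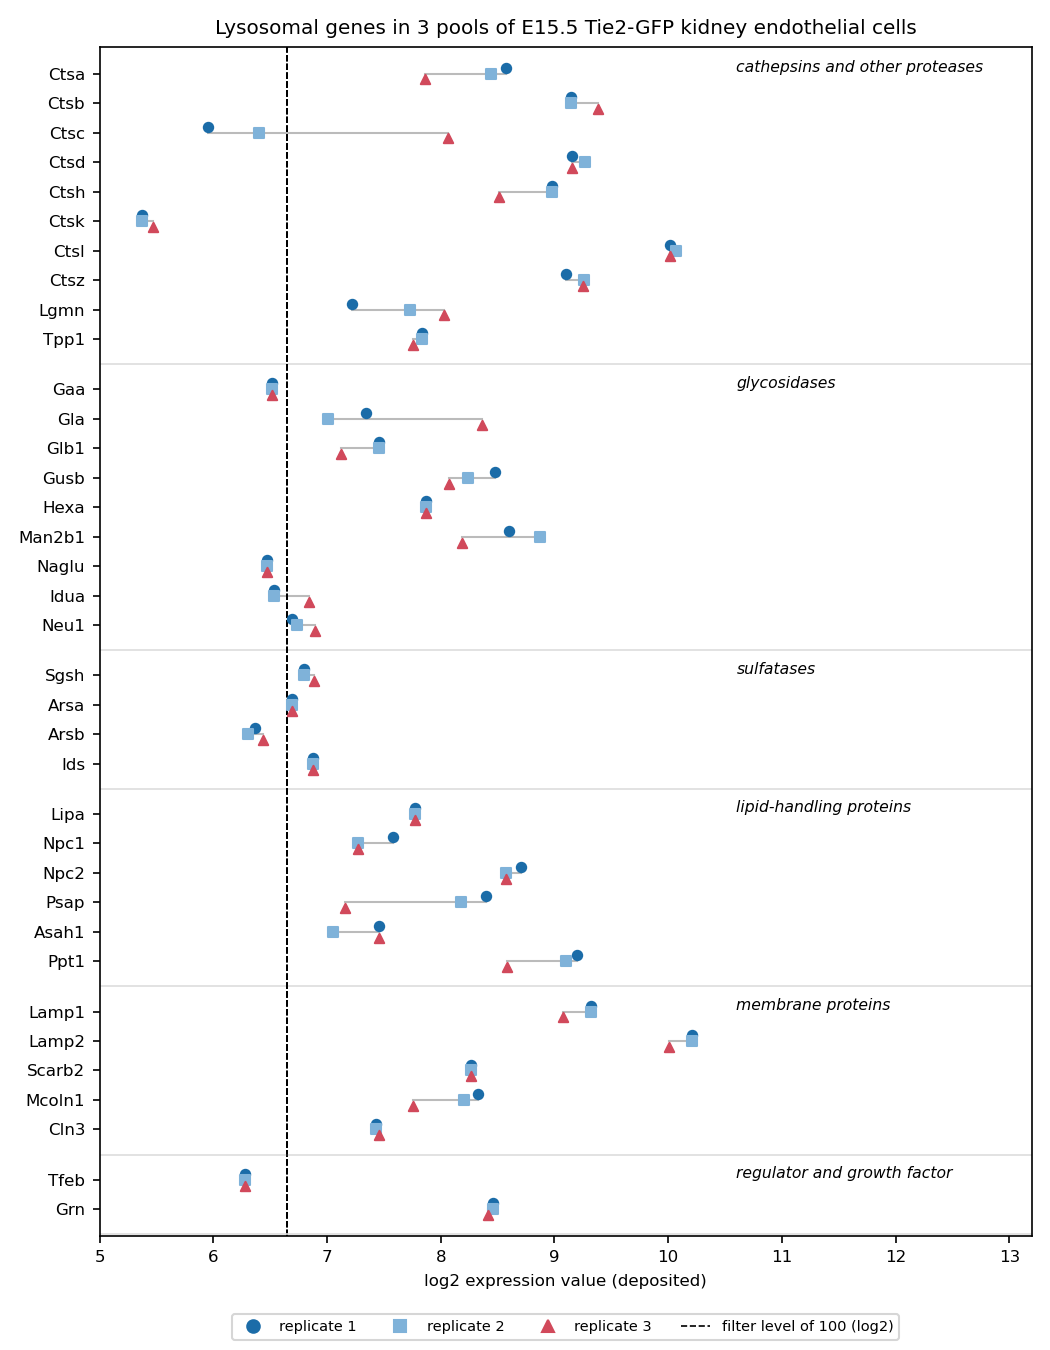
Deposited log2 values of the 36 lysosomal genes on the 3 arrays, ordered by functional group from top to bottom. Circles are replicate 1, squares replicate 2 and triangles replicate 3, a grey line joins the lowest and highest value of a gene, and the dashed line is the level of 100. All 5 membrane proteins lie right of the dashed line on every array, Ctsk, Gaa, Naglu and Tfeb lie left of it, and Ctsc crosses it.

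The 10 proteases, which digest proteins in the lysosome, had ranges over the 3 arrays between 0.05 in Ctsl and 2.11 in Ctsc. Ctsl, a cysteine cathepsin, was at 10.02, 10.07 and 10.02 log2 in replicates 1, 2 and 3 and was above the level (10.04 ± 0.03, SD, n = 3, limma, adjusted p = 3.0e-05). Ctsd, the main aspartic protease of the compartment, was at 9.15, 9.27 and 9.15. Ctsb, a cysteine cathepsin with exopeptidase activity, was at 9.14, 9.14 and 9.38. The widest range among these 3 genes was 0.23, in Ctsb. Ctsz, a carboxypeptidase, was at 9.10, 9.26 and 9.25. Tpp1, the tripeptidyl peptidase lost in a neuronal storage disease, was at 7.84, 7.84 and 7.76. Both were above the level as well.

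Other proteases spread further. Ctsh, an aminopeptidase, was at 8.98 in replicates 1 and 2 and at 8.51 in replicate 3. Ctsa was at 8.58, 8.44 and 7.86 in replicates 1, 2 and 3. Both were lowest in replicate 3 and above the level, with an adjusted limma p of 0.00427 for Ctsh and 0.0140 for Ctsa. Lgmn, the asparaginyl endopeptidase that processes other cathepsins, was at 7.22, 7.73 and 8.03 and was above by a narrower margin (7.66 ± 0.41, SD, n = 3, limma, adjusted p = 0.0415). Its highest value was in replicate 3. Ctsa and Ctsh lost the call without replicate 1 or without replicate 2, and Lgmn without any 1 of the 3, with adjusted limma p-values between 0.0531 and 0.204.

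Ctsc and Ctsk stood apart from the other proteases. Ctsc, the dipeptidyl peptidase that activates granule serine proteases of immune cells, was at 5.95, 6.40 and 8.06 in replicates 1, 2 and 3. It lay under the level in replicates 1 and 2 and over it in replicate 3, and its mean of 6.80 ± 1.11 (SD, n = 3) passed neither test. Ctsk, the collagen-degrading cathepsin of osteoclasts, was at 5.37, 5.37 and 5.47 and was below the level (limma, adjusted p = 0.000633).

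Of the 9 glycosidases, which remove sugars from glycoproteins, glycolipids and glycosaminoglycans, 4 were above, 2 below and 3 passed neither test. Over all named genes 41.6% were above and 41.6% below, and 9 genes are too few to set the group apart. Man2b1, the acid alpha-mannosidase, was at 8.60, 8.87 and 8.19 in replicates 1, 2 and 3. Gusb, the beta-glucuronidase, was at 8.47, 8.24 and 8.07. Glb1, the acid beta-galactosidase, was at 7.46, 7.46 and 7.12. All 3 were lowest in replicate 3 and above the level. Hexa, the alpha subunit of beta-hexosaminidase, was at 7.87 on every array.

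The below-level glycosidases were both tied across the arrays. Gaa, the acid alpha-glucosidase that degrades glycogen, was at 6.51 on each, and Naglu, which acts on heparan sulfate, was at 6.47 on each. These values lie within 0.17 of the level and neither call held with the pooled spread, nor that of Gaa with quantile normalization. Idua, the iduronidase of heparan and dermatan sulfate, was at 6.53, 6.53 and 6.84 in replicates 1, 2 and 3. Neu1, the lysosomal sialidase, was at 6.69, 6.74 and 6.90. The values of Idua straddled the level, those of Neu1 lay just over it, and both genes passed neither test. Without replicate 3, which left a pair of tied arrays, Idua was called below, with a mean minus the level of -0.11 log2. Gla was at 7.35, 7.01 and 8.36, over the level on every array, but its spread left it without a call (7.57 ± 0.70, SD, n = 3, limma, adjusted p = 0.135). Without replicate 1 or without replicate 2, Glb1 and Man2b1 were no longer above. Gusb lost the call without replicate 2 or without replicate 3, and Man2b1 without replicate 3 as well. The adjusted limma p-values of these losses lay between 0.0517 and 0.130.

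The sulfatases lay near the level. Sgsh, which removes sulfate from heparan sulfate, was at 6.80, 6.80 and 6.89 in replicates 1, 2 and 3. Ids, the iduronate sulfatase, was at 6.87 on each array and Arsa, the sulfatase of the myelin lipid sulfatide, at 6.69 on each. These 3 were above the level by 0.05 to 0.23 log2, and none of the calls held with the pooled spread. With quantile normalization Sgsh and Arsa were no longer above, and with centred arrays Arsa was not. Without replicate 1 or without replicate 2, Sgsh and Arsa also lost the call, with adjusted limma p-values between 0.0834 and 0.116. Arsb, which acts on dermatan sulfate, had a pair of probe sets. The first read 6.10, 5.97 and 6.24 and the second 6.63 on each array, and the gene was not called below (limma, adjusted p = 0.0824). It was called below with a prior that followed the mean level (limma, adjusted p = 0.0418) and with only single-symbol probe sets tested (limma, adjusted p = 0.0146).

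Lipid-handling proteins were above the level in 5 of 6 cases, and none was highest in replicate 3 alone. Ppt1, the palmitoyl thioesterase, was at 9.20, 9.10 and 8.59 in replicates 1, 2 and 3. Npc2, the soluble carrier of cholesterol, was at 8.70, 8.57 and 8.57, and its membrane partner Npc1 was at 7.58, 7.27 and 7.27. Lipa, the acid lipase that releases cholesterol from its esters, was at 7.77 on every array. Asah1, the acid ceramidase, was at 7.45, 7.05 and 7.45. All 5 were above the level, but Ppt1 not without replicate 1 or without replicate 2, Npc1 not without replicate 2 or without replicate 3, and Asah1 not without replicate 1 or without replicate 3 (adjusted limma p between 0.0558 and 0.221).

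Psap, the precursor of the saposins that present sphingolipids to their hydrolases, was at 8.40 and 8.18 in replicates 1 and 2 and at 7.16 in replicate 3. It was over the level on all arrays and its mean of 7.91 ± 0.66 (SD, n = 3) did not pass the test (limma, adjusted p = 0.0687). It was above with the arrays centred on their median (limma, adjusted p = 0.0463), with quantile normalization and with the pooled spread.

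The membrane proteins were above the level without exception. Lamp2, the lysosome-associated glycoprotein needed for fusion with autophagosomes, was at 10.21, 10.21 and 10.00 in replicates 1, 2 and 3. Lamp1 was at 9.32, 9.32 and 9.08. Scarb2, the receptor that carries glucocerebrosidase to the lysosome, was at 8.27 on each array. Lamp2 had a range of 0.21 over the arrays and Lamp1 of 0.25. Mcoln1 was at 8.33, 8.20 and 7.76, and Cln3, the membrane protein of juvenile Batten disease, was at 7.43, 7.43 and 7.46. Mcoln1 was the 1 gene of the 5 that lost its call when an array was left out (limma, adjusted p = 0.0789 without replicate 1 and 0.0993 without replicate 2).

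Tfeb read 6.28 on each of the 3 arrays and was below the level (limma, adjusted p = 0.000108), though not with the pooled spread. Its relatives were not above the level either. Mitf, known from melanocytes and osteoclasts, was at 4.05, 4.23 and 5.53 in replicates 1, 2 and 3 and passed neither test. Tfe3 was at 5.98, 5.98 and 6.70 and also passed neither, and Tfec, described in macrophages, was below at 4.82, 4.75 and 5.71. Each of these 3 was highest in replicate 3. Grn, the progranulin gene, whose product is both secreted and lysosomal, was at 8.46, 8.46 and 8.41 and was above (limma, adjusted p = 7.9e-05). Of the genes with CACGTG in a window 10 were above, 2 below and 1 neither. Those with a window and no match had 12 above, 2 below and 5 neither. Over all named genes the shares were 41.6% above and 41.6% below.

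The second question was how the same genes differed between the 3 pools. Each difference sets 1 array against another, so it has no error and no test, and the differences of replicate 3 from replicate 1 and from replicate 2 share replicate 3. Differences of 2-fold or more were few. Ctsc was higher in replicate 3 by 2.11 log2 than in replicate 1 and by 1.66 than in replicate 2. Gla was higher in replicate 3 by 1.01 than in replicate 1 and by 1.35 than in replicate 2. Psap had log2 differences of -1.24 and -1.02 in replicate 3 against replicates 1 and 2. No other lysosomal gene of the 36 reached 2-fold in any pair.

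With so few genes, these counts do not set the 36 apart from the rest of the array. The 2 genes at least 2-fold higher in replicate 3 than in replicate 1 are 5.56% of the 36, against 2.6% of all named genes, and the 1 gene at least 2-fold lower is 2.78%, against 5.7%. Against replicate 2, the same 2 genes compare with 1.96% and the 1 gene with 3.98%. Between replicates 2 and 1 none of the 36 reached 2-fold, where 0.291% of named genes were higher in replicate 2 and 0.371% were lower. Among the 10098 named genes with a mean of at least 100, 78 were at least 2-fold higher and 1113 at least 2-fold lower in replicate 3 than in replicate 1.

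The middle of the 36 genes lay close to no difference. The median difference of replicate 3 from replicate 1 over the 36 was 0.00, as over all named genes, against -0.09 for genes with a mean of at least 100. Replicate 3 was higher than replicate 1 for 11 genes, lower for 15 and equal for 10. The median range of a gene over the 3 arrays was 0.18 for the 36, against 0.22 for all named genes and 0.27 for those with a mean of at least 100. By functional group the median range was 0.05 for sulfatases, 0.20 for proteases, 0.21 for membrane proteins, 0.31 for glycosidases and 0.36 for lipid-handling proteins. The median difference of replicate 3 from replicate 1 was -0.22 for lipid-handling proteins and -0.21 for membrane proteins, and 0.05 for proteases. Against replicate 2 the medians were 0.00, -0.21 and -0.03 for the same 3 groups.

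**Figure D3:**
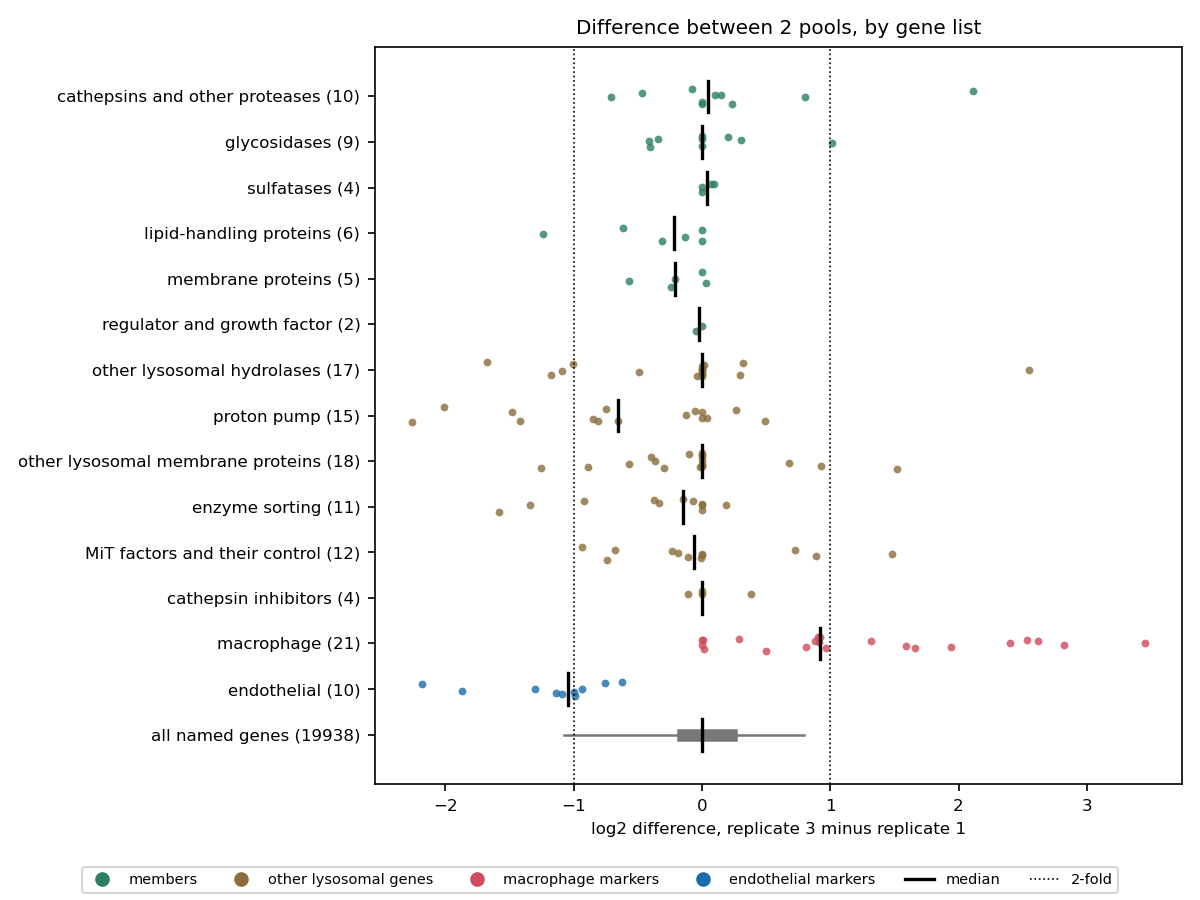
Log2 difference of replicate 3 minus replicate 1 for each gene of the 6 functional groups (green), of other lysosomal lists (brown), and of macrophage (red) and endothelial (blue) markers, with the number of genes in brackets. Black bars are medians, dotted lines mark 2-fold, and the grey box and line give the middle 50% and the 5th to 95th percentile of all named genes. Ctsc at 2.11, Gla at 1.01 and Psap at -1.24 lie beyond 2-fold, macrophage markers have a median of 0.92 and endothelial markers of -1.05.

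The order of the 3 values within a gene was set beside that of the markers. The order 3 over 2 over 1 was held by 14 of 21 macrophage markers and by 3 of the 36 lysosomal genes, Ctsc, Lgmn and Neu1, which is 8.33%, against 9.12% of all named genes and 3.75% of those with a mean of at least 100. The opposite order was held by 9 of 10 endothelial markers and by 5 of the 36, Ctsa, Gusb, Psap, Ppt1 and Mcoln1, which is 13.9%, against 12.5% of all named genes and 23.9% of those with a mean of at least 100. Gla followed neither order, since its lowest value was in replicate 2. Among the differences of replicate 3 from replicate 1 over all named genes, Psap lay at percentile 3.47 and Ctsc at percentile 99.9.

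Of the 21 macrophage markers, 14 held the order 3 over 2 over 1, as did Ctsc, Lgmn and Neu1 among the 36 genes. The other markers, Adgre1 among them, did not. Csf1r, the receptor that macrophages need to survive, was at 6.45, 6.98 and 7.41 in replicates 1, 2 and 3. Adgre1, the gene of the F4/80 antigen, was at 5.62, 6.74 and 6.42. Cd14, a co-receptor for endotoxin, was at 5.53, 6.17 and 6.43. Of the 21 markers, 9 were at least 2-fold higher in replicate 3 than in replicate 1 and none lower, and 8 were at least 2-fold higher in replicate 2 than in replicate 1. Itgb2 at 5.82 and Cd163 at 4.96 were both below the level and equal on all arrays (chosen after their values were seen). The part of macrophage RNA in the values of Ctsc and Lgmn, and of Ctss and Cd68 described next, was not tested.

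Genes of the other lysosomal lists also differed between the pools. Ctss, a cathepsin of antigen-presenting cells, was at 7.65, 8.66 and 10.20 in replicates 1, 2 and 3. Cd68, a lysosomal glycoprotein used as a macrophage stain, was at 7.30, 8.95 and 8.82. Cd63, a tetraspanin of lysosomes and secretory granules, was at 11.59, 11.83 and 12.52. For these 3 genes replicate 1 had the lowest value. Of all 77 measured genes of the other lysosomal lists, 47 were above the level and 11 below, against 41.6% of all named genes on each side. In replicate 3 against replicate 1, 3 of the 77 (3.90%) were at least 2-fold higher and 11 (14.3%) at least 2-fold lower. The shares were 2.6% and 5.7% of all named genes, and 78 and 1113 of the 10098 with a mean of at least 100. The 3 higher genes were Ctss, Cd68 and Mitf, while Cd63 was higher by only 0.93 log2. Mitf was higher in replicate 3 by 1.48 log2 than in replicate 1 and by 1.30 than in replicate 2, at values under the level on every array.

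Among the other lysosomal lists, the proton pump had the lowest median in replicate 3 against replicate 1. Of its 15 measured genes 13 exceeded the level by the test and none fell short, against 41.6% of all named genes on each side. In replicate 3, 10 were lower than in replicate 1, and 4 of them (26.7% of the list) were at least 2-fold lower. At least 2-fold lower were also 5.7% of all named genes and 1113 of the 10098 with a mean of at least 100. The median difference over the list was -0.65 log2 against replicate 1 and -0.54 against replicate 2. Atp6v0d1, a subunit of the membrane sector, was at 8.66, 8.92 and 6.40 in replicates 1, 2 and 3. Atp6v1b2, a subunit of the catalytic sector, was at 8.15, 7.92 and 6.15, and Atp6v1f, also of that sector, was at 10.17, 9.88 and 8.68. In all 3 genes replicate 3 was the lowest by more than 2-fold. The accessory subunits read 8.68, 8.56 and 8.02 for Atp6ap1 and 7.61, 7.54 and 7.87 for Atp6ap2, and Atp6v0a1 was at 8.33, 8.33 and 7.58. These last 3 genes were above the level.

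Genes that sort hydrolases to the lysosome were above the level in 9 of 11 cases and below in none. Of all named genes 41.6% lay on each side. Igf2r, the mannose 6-phosphate receptor, was at 9.85, 9.81 and 8.27 in replicates 1, 2 and 3. Gnptab, which makes the mannose 6-phosphate tag, was at 7.51 on each array, and Sort1, an alternative sorting receptor, averaged 6.44 ± 0.46 (SD, n = 3) and passed neither test. Igf2r was thus more than 2-fold lower in replicate 3 than in both other pools. The hydrolases Galc, the galactocerebrosidase, and Plbd2, a phospholipase B-like protein, shared that difference. Galc was at 7.80, 7.80 and 6.12 and Plbd2 at 6.53, 6.39 and 5.35, and neither passed a test of level.

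Of 17 measured hydrolases outside the 36 genes, 7 were above the level and 4 below. Galns, a sulfatase of keratan sulfate, was above at 7.14 on each array and Manba, the beta-mannosidase, was below at 6.31, 6.28 and 6.31 in replicates 1, 2 and 3. Of 18 other membrane proteins 9 were above and 4 below, and Lamp3, known from dendritic cells, was below at 4.30 on each array. Cst3, the secreted cystatin that inhibits cysteine cathepsins, was above at 10.68 ± 0.28 (SD, n = 3). The cystatins Cst6 at 5.24 and Cst7 at 6.07 were below, each with 1 value on all arrays. Of 4 measured cathepsin inhibitors 2 were above and 2 below. Of all named genes, 41.6% were above and 41.6% were below. The shares below were smaller than that for the 17 hydrolases and the 18 membrane proteins.

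Endothelial markers were lower in replicate 3, as were Psap and 10 of the 15 pump genes. Of the remaining pump genes 3 were higher and 2 equal. Of the 10098 named genes with a mean of at least 100, 5670 were lower in replicate 3 than in replicate 1. Pecam1, an adhesion molecule of endothelial junctions, was at 10.49, 10.37 and 9.40 in replicates 1, 2 and 3. Cdh5, the cadherin of those junctions, was at 11.57, 11.23 and 10.43. Kdr, a receptor for VEGF, was at 10.69, 10.17 and 8.82. All 3 were above the level and lowest in replicate 3. The summed linear level of the 10 endothelial markers was 17169, 14952 and 8560 in replicates 1, 2 and 3, and their median difference of replicate 3 from replicate 1 was -1.05. The part of the endothelial share in the values of Psap and of the pump was not tested.

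**Figure D4:**
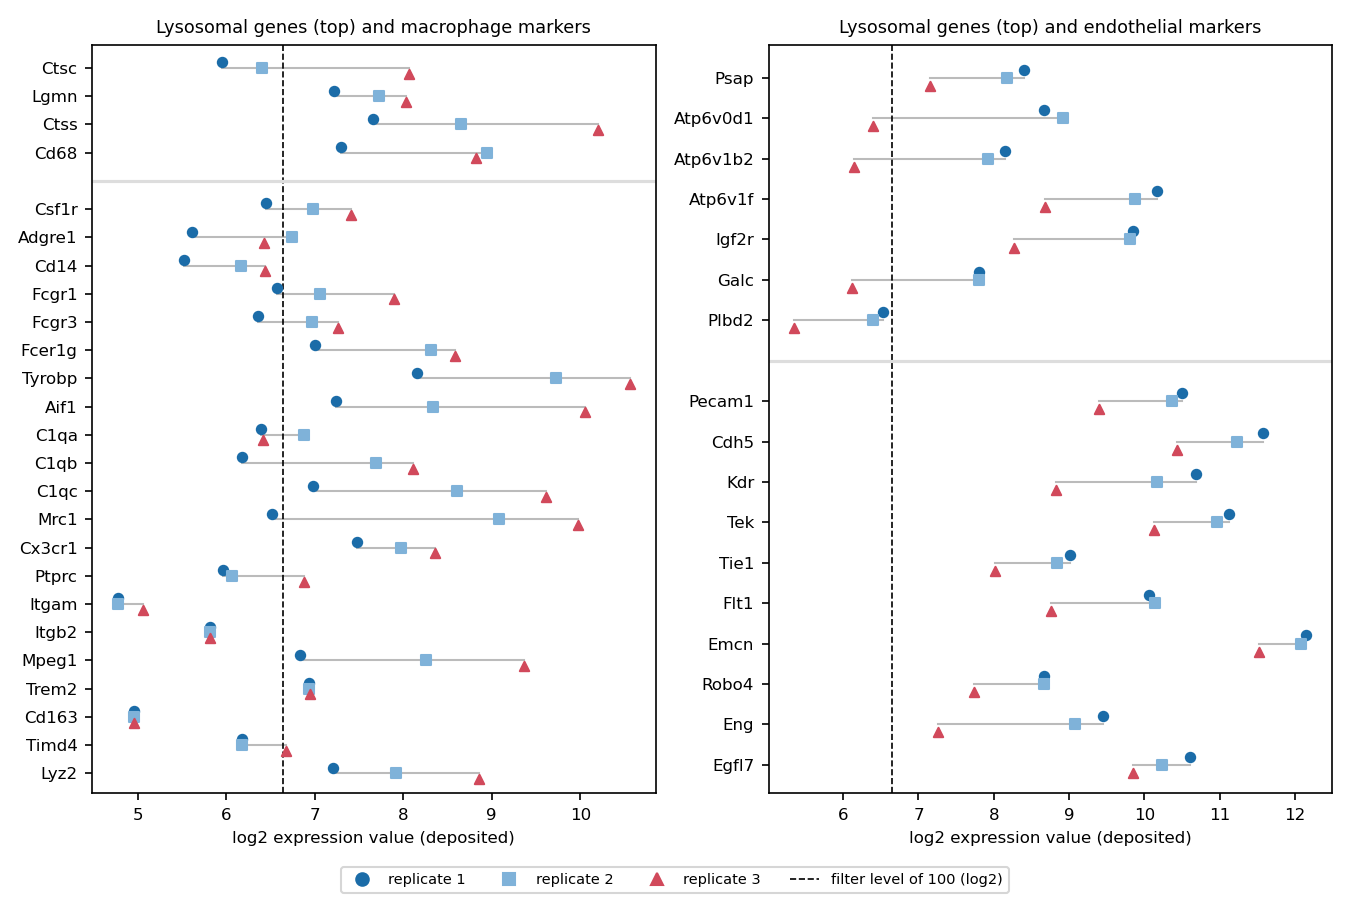
Deposited log2 values on the 3 arrays for lysosomal genes (above the grey bar) beside the 21 macrophage markers on the left, and for others beside the 10 endothelial markers on the right. Circles are replicate 1, squares replicate 2 and triangles replicate 3, and the dashed line is the level of 100. Ctsc, Lgmn and Ctss are highest in replicate 3, as are 17 of the macrophage markers, while Cd68 is highest in replicate 2. All 10 endothelial markers are lowest in replicate 3. The 7 lysosomal genes on the right were drawn because replicate 3 was at least 2-fold lower than both other pools. Their low values there therefore follow from the choice. The lysosomal genes on the left were picked with earlier results known, so their likeness to the macrophage markers follows in part from the choice. Gla, Neu1 and Mitf, also highest in replicate 3, are not drawn.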

How the data were processed

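The values are log2 intensities as deposited by the authors, for 35557 probe sets on each of 3 arrays. Affymetrix Expression Console is named, with no version, in the submitters' processing notes, and neither the summarization and normalization of this table nor the step that left exact ties between arrays is given in the sources. The methods describe RMA values in GeneSpring, which may not apply to the deposited table. Such ties lower the measured spread. By the platform annotation, 21789 probe sets had 1 symbol, 1621 had several and were not used for genes, and 12147 were unnamed. Of the 21789, 21698 matched a RefSeq gene table (GRCm38.p6) by gene identifier. A gene's value was the mean of its probe sets.

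Each mean was tested against log2(100) in limma 3.58.1 (R 4.3.3), with an intercept-only fit over all probe sets and eBayes. A call above needed 1 probe set of the gene to pass, and a call below needed every one of them to pass. The fit was also run on simulated data, but these held no exact ties, so they do not show how it behaves with the ties of this table. The other tools were Python 3.11.15, pandas 2.3.3 and numpy 2.4.6. Nothing in the labels ties the pools to separate litters, and a p-value here reflects the spread of the 3 arrays alone, whose number limits the precision. Scale, pooled spread, prior, probe sets, level, fold and single arrays were varied.

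The genes, lists and tests were chosen with earlier results of these data known. The rule for named genes took all 36, Tek, the first 3 measured genes of each other list, and genes of other lysosomal lists that differed 2-fold between replicate 3 and both other replicates. Markers of erythroid, stromal, progenitor and tubule cells are given only as counts, and Itgb2 and Cd163 fall outside the rule.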

Additional observations from a re-analysis of the deposited data

How the results depend on the processing

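With a level of 200 in place of 100, 14 of the 36 genes were above and 11 below (3221 and 13280 of all named genes). With a level of 50, 34 were above and 1 below (14235 and 2613). The pooled spread also left 1 gene below (6474). Leaving out 1 array gave between 15 and 21 genes above, where fewer arrays entered each fit. The 21 came without replicate 3, and replicates 2 and 1 were exactly equal in 12654 named genes. Replicates 3 and 1 were equal in 5570 and replicates 3 and 2 in 5881, so these counts are not strictly comparable. With a level of 200 the mean minus the level turned to -0.30 for Glb1, -0.82 for Sgsh, -0.95 for Arsa, -0.77 for Ids, -0.27 for Npc1, -0.32 for Asah1 and -0.21 for Cln3. With a level of 50 it turned to 0.87 for Gaa, 0.83 for Naglu and 0.64 for Tfeb. Those turns follow from the levels themselves.

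Centring the arrays left 1 gene at least 2-fold higher in replicate 3 than in replicate 1, with Gla at 0.96. Quantile normalization left 0 genes at least 2-fold lower in replicate 3 than in replicate 2, with Psap at -0.84. It gave 3 at least 2-fold higher in replicate 3 than in replicate 1, with Lgmn added at 1.08. It put the median difference of replicate 3 over the 36 genes at 0.16 against both replicates. The medians against replicates 1 and 2 were 0.00 and 0.01 over all named genes, and 0.05 and 0.07 over those with a mean of at least 100. The cause was not tested. At 1.5-fold, 3 genes were higher and 3 lower in replicate 3 than in replicate 1, and 2 were higher and 2 lower than in replicate 2. The 1.5-fold counts were not made over all named genes. No paired analysis was possible because the series has 1 group. With 3 arrays, values near the level, such as those of the sulfatases, are not resolved from it firmly.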
